A study of Mus musculus with 4 samples.

Results

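Open chromatin was examined around 5 genes of the cardiac GATA programme, Gata4, Gata5, Gata6, Zfpm1 and Zfpm2, in hearts of newborn C57BL/6 mice (postnatal day 0). Each locus was the gene body in GRCm38 with 50 kb added on each side. Peaks from the 4 ATAC-seq libraries were joined into 1 region wherever they shared at least 1 bp, and 62 of the 53140 merged regions fell in these windows. There were 20 at Gata4, 9 at Gata5, 8 at Gata6, 18 at Zfpm1 and 7 at Zfpm2. In ATAC-seq the transposase Tn5 inserts sequencing adapters into accessible DNA, so a peak marks a stretch of open chromatin. In the edKO hearts (n = 2) cardiomyocytes lacked RXR alpha together with RXR beta, retinoid X receptors that form dimers on DNA with other nuclear receptors, and the WT hearts (n = 2) carried both. The design text gives 1 heart per library, so the 2 libraries of a group are separate animals. The promoter driving the recombinase is not given in the sources used here. Nuclei came from total hearts, so cells other than cardiomyocytes kept both receptors and could contribute to the peaks.

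GATA factors are zinc finger proteins that bind the sequence GATA. GATA4 and GATA6 are needed for the heart to form and for cardiomyocytes to express contractile and natriuretic peptide genes, and GATA5 is best known in the endocardium. Zfpm1 and Zfpm2 encode FOG-1 and FOG-2, zinc finger cofactors that do not act by binding DNA themselves but bind the N-terminal finger of a GATA factor and can repress or enhance its activity. FOG-2 is the partner of GATA4 in the heart, where its loss disturbs valves, septa and coronary vessels, while FOG-1 is best known as the partner of GATA1 in blood cells.

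The edKO lists were shorter than the WT lists, with 27473 peaks in edKO 1 and 27142 in edKO 2, against 35279 in WT 1 and 38809 in WT 2. The lowest local background was 1.51 and 1.92 in edKO 1 and edKO 2 and 1.81 and 1.80 in WT 1 and WT 2. It was solved from fold and p and is at best a rough stand-in for depth, not checked against read counts. Fold enrichment over the top 10000 peaks of a list had a median of 10.2 and 7.61 in the edKO libraries and 10.8 and 11.5 in the WT libraries. A missing call means only that a site stayed under the peak caller's threshold in that library. Gene ends of all 5 cardiomyocyte markers (Tnnt2, Myh6, Actn2, Ttn, Ryr2) carried a call in every library. For the other markers the number of genes with a called end in edKO 1, edKO 2, WT 1 and WT 2 was 3, 3, 2 and 3 of 5 endothelial, 2, 2, 3 and 4 of 5 fibroblast, 2, 2, 2 and 3 of 4 mural, and 2 in each library of 3 epicardial genes. It was 0, 0, 1 and 1 of 3 immune genes. Gene ends of Pecam1, Npr3, Dpt, Rgs5, Upk3b, Ptprc and Csf1r had no call in any library. The targeted genes overlapped 5 and 5 regions in edKO 1 and edKO 2 and 6 and 7 in WT 1 and WT 2 at Rxra, and 1 and 1 against 2 and 2 at Rxrb. The deleted exons were not located, so the genotype is not checked by these calls. The part of depth, enrichment or cell composition in the results was not tested.

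Fewer regions were called in the edKO hearts at each of the 5 genes, while the main region at the gene end of Gata4, Gata6, Zfpm1 and Zfpm2 was called in all 4 hearts. Over the 5 windows 27 and 26 regions were called in edKO 1 and edKO 2 and 41 and 48 in WT 1 and WT 2, or 26.5 ± 0.707 in edKO hearts and 44.5 ± 4.95 in WT hearts (SD, n = 2 each), a ratio of 0.596. Over the whole genome the same ratio was 0.728. The groups did not overlap at any of the 5 genes, and both edKO hearts likewise had fewer regions than both WT hearts in 47.4% of all gene windows that held 7 to 20 regions, so this separation is a common pattern in these libraries. At no member gene were more regions called in both edKO hearts than in both WT hearts, as happened in 0.502% of those windows. The exact permutation test (two-sided) gave p = 0.333 for the sum and for each gene (adjusted p = 0.333 over the 5 genes), the smallest p that 2 hearts against 2 can give. With every list shortened to 27142 peaks the means over the 5 genes were 26.5 in edKO hearts and 33.5 in WT hearts. The groups then overlapped or tied at Gata5 (3.0 in edKO and 4.5 in WT), Gata6 (3.5 in edKO and 4.0 in WT) and Zfpm2 (3.0 in each), and stayed apart at Gata4 (10 in edKO and 12 in WT) and Zfpm1 (7 in edKO and 10 in WT). The genome-wide ratio and the share of gene windows that stay apart are not given for lists of this length. Whether Gata4 and Zfpm1 differ from other windows in that setting therefore cannot be read from these counts. Within the Gata4 gene body alone the means were 5.5 in edKO hearts and 6.0 in WT hearts, and the groups overlapped. Fewer cells of a type and less open chromatin per cell cannot be told apart in such libraries.

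**Figure D1:**
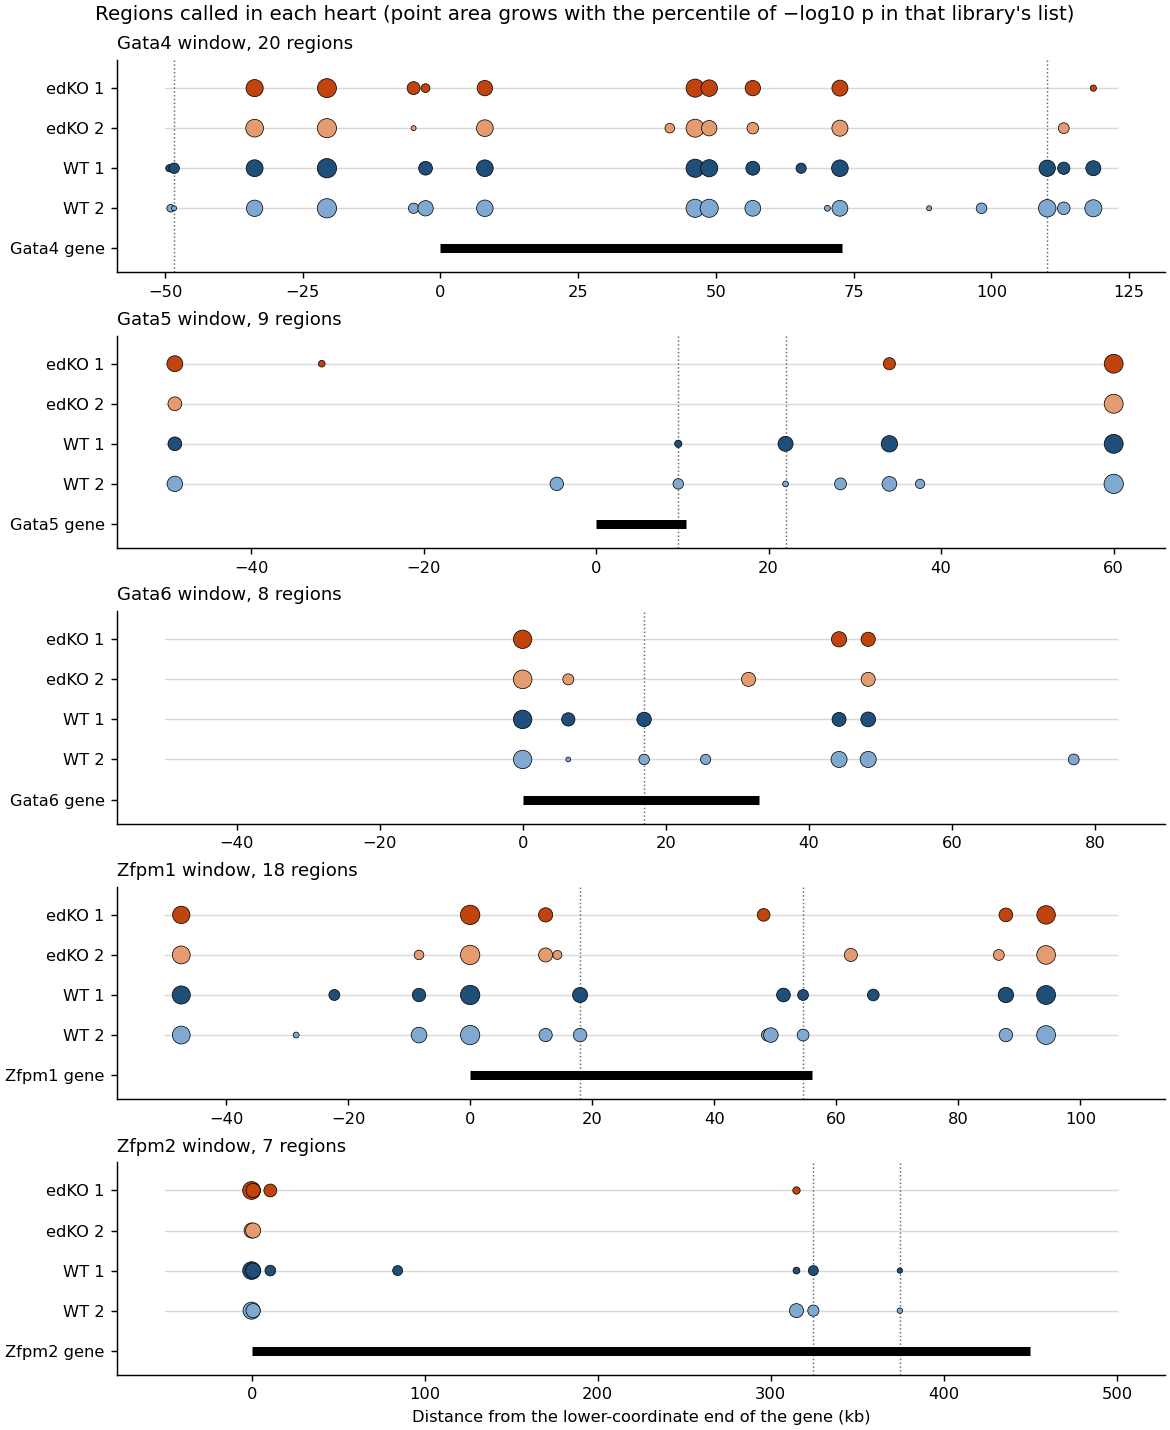
Regions called in each heart in the windows of the 5 genes, by distance from the lower-coordinate end of the gene in kb. Each point is a region, its area grows with the percentile of its −log10 p within that library's own list, black bars are the genes, and dotted lines mark the 9 regions called in WT 1 and WT 2 only; Gata4 and Zfpm1 hold 20 and 18 regions, and the long Zfpm2 gene holds 7, none of them outside it.

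**Figure D2:**
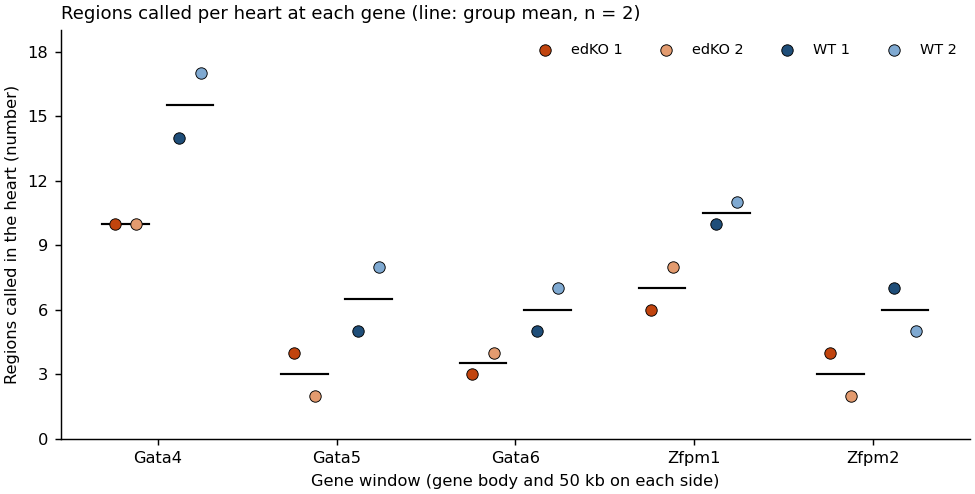
Number of regions called per heart in each gene window, with the mean of the 2 edKO and the 2 WT hearts as a line. Both edKO hearts lie below both WT hearts at each gene, from 10 and 10 against 14 and 17 at Gata4 to 4 and 2 against 7 and 5 at Zfpm2.

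Gata4 lies on chromosome 14 (63198914 to 63271712) and encodes the GATA factor most studied in heart muscle. Its window was dense, with 11.6 regions per 100 kb against a median of 3.56 over all 21631 protein-coding gene windows. Calls numbered 10 and 10 in edKO 1 and edKO 2 and 14 and 17 in WT 1 and WT 2. The region over the upper end of the gene (63271419 to 63272220, 802 bp) was called in all 4 hearts, with the authors' −log10 p at 17.7 and 12.7 in edKO 1 and edKO 2 and at 23.8 and 18.3 in WT 1 and WT 2. The pileup of sequenced fragments at its summit, solved from the deposited fold and p, was 32 and 29 in the edKO libraries and 53 and 45 in the WT libraries, over local backgrounds of 4.36 and 5.40 in edKO and 8.94 and 8.64 in WT. The fold enrichments computed by the peak caller were close, at 6.16 and 4.69 in edKO hearts and 5.43 and 4.77 in WT hearts.

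Inside Gata4, 4 further regions were open in all 4 hearts. The strongest of them (63245137 to 63246146, 1010 bp) had −log10 p values of 42.3 and 27.6 in edKO 1 and edKO 2 and 51.9 and 50.9 in WT 1 and WT 2, at the 85.9th, 84.9th, 86.8th and 86.4th percentiles of those lists. It sat close to its neighbour at 63247694 to 63248117, which reached 20.6 and 10.7 in edKO hearts and 29.8 and 49.6 in WT hearts. The other 2 lay at 63206968 to 63207455 and at 63255611 to 63256325. No region inside the Gata4 gene was called in WT 1 and WT 2 alone, and the 3 regions there that were not open in every heart were each called in a single library, 1 in edKO 2, 1 in WT 1 and 1 in WT 2. The strongest region of the whole window lay in the neighbouring gene Fdft1, which encodes squalene synthase (63177720 to 63178307), with −log10 p of 77.5 and 65.2 in edKO hearts and 149.6 and 143.5 in WT hearts. Its fold enrichment was 15.5 and 13.9 in edKO hearts and 19.5 and 18.2 in WT hearts.

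The strongest region lost from both edKO lists at any of the 5 genes stood 37.3 kb beyond the upper end of Gata4 (63309051 to 63309505, 455 bp), over the noncoding transcript Gm4151. No edKO library had a call there, while WT 1 and WT 2 reached a −log10 p of 21.2 and 34.3, with pileups of 39 and 54 at the summit over backgrounds of 5.30 and 5.62. It ranked 40th by strength among the 5440 regions of the genome called in the WT pair alone. Of the 3404 regions of like strength (within 5 percentile points) that were called in the WT pair, 75 (2.20%) lacked a call in both edKO hearts. For the other WT-only member regions this share ran from 20.1% to 66.1%. The site was picked as the strongest of them by the same calls, so the low share does not test it. The next 2 regions along Gm4151 were each called in 3 hearts. The one at 63312053 to 63312355 was called at 6.07 in edKO 2 and at 9.08 and 9.45 in WT 1 and WT 2, without a call in edKO 1. The one at 63317423 to 63317865 was called at 4.76 in edKO 1 and at 14.5 and 28.7 in WT 1 and WT 2, without a call in edKO 2. The remaining WT-pair region of the window was a weak site in Fdft1, 48.3 kb from Gata4 (63150282 to 63150567), at 7.54 in WT 1 and 4.55 in WT 2.

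Gata5 lies on chromosome 2 (180325088 to 180335503), and the region at its start was called in the WT hearts alone. Calls in the window numbered 4 and 2 in edKO 1 and edKO 2 and 5 and 8 in WT 1 and WT 2. The start region (180334609 to 180334889, 281 bp) also overlapped the noncoding gene Gata5os, and its −log10 p reached 5.63 and 7.46 in WT 1 and WT 2. It stood 0.614 kb inside the upper limit of the gene, because the gene model extends upstream of the RefSeq start used here. Its summits, 53 and 73 bp upstream of that start, had pileups of 13 and 16 over backgrounds of 2.90 and 3.10. These are weak peaks, at the 9.12th and 25.1st percentiles of the WT lists, and of the regions of like strength called in the WT pair 58.0% lacked a call in both edKO hearts. With lists of equal length, which drop peaks under 7.17 in WT 1 and under 8.09 in WT 2, the region was called in no library. Among promoter windows of any strength, from 250 bp before to 50 bp after a RefSeq start, such a loss was rarer. This comparison is not matched for strength, and no share is given for promoter windows as weak as this one. Of the 11546 windows called in both WT libraries, 419 (3.63%) had no call in either edKO library and 88.1% were called in all 4.

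The 250 bases before the start of Gata5 are shown because 210 of them lie under this weak WT-pair peak, and those of Zfpm1 because all of them lie under one of the strongest peaks of every library. Both come from RefSeq (GRCm38.p6) and read 5′ to 3′ on the strand of the gene, chr2:180334680-180334929 on the minus strand and chr8:122281891-122282140 on the plus strand. Capitals mark matches, on either strand, to GGGTCA (a variant of the nuclear receptor core motif), CACGTG (an E-box) and GGGCGG (a GC box).
Gata5: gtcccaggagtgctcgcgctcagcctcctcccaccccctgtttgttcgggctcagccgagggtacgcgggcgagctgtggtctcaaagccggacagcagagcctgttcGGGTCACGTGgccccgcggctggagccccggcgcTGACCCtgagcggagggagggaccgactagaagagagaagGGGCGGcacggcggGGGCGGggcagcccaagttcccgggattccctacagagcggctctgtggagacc
Zfpm1: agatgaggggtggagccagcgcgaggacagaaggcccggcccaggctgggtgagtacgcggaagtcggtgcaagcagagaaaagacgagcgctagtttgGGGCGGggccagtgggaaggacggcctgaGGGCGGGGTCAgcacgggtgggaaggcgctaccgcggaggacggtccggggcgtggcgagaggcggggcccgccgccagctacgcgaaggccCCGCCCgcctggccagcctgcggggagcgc
The Gata5 sequence held GGGTCA 2 times, CACGTG once, sharing 2 letters with the first GGGTCA as the run GGGTCACGTG, and GGGCGG 2 times. In Zfpm1 GGGTCA occurred once, overlapping a GC box, and GGGCGG occurred 3 times. Of 32585 RefSeq promoters, 11.7% held GGGTCA, 6.06% CACGTG and 32.9% GGGCGG in the same window. Neither sequence held AGGTCA (in 14.1% of promoters), AGATAA (10%), TGATAA (7.90%) or the direct repeat AGGTCANAGGTCA (0.0338%), which says only that these letters are not in these windows. Both were rich in G and C, at 70.0% for Gata5 and 73.2% for Zfpm1 against a median of 52.4%, with 22 and 28 CG dinucleotides against a median of 6. Of the 3034 promoters at least as G and C rich as that of Gata5, whether called or not, 76.8% were called in all 4 hearts. This cannot be set against the 88.1% given earlier, which counts only windows called in both WT libraries. The same share over all promoters is not given.

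Further from Gata5, a region 11.5 kb beyond the upper end (180347051 to 180347460) had no call in the edKO hearts and a −log10 p of 14.5 and 4.88 in WT 1 and WT 2. A region 23.6 kb beyond that end (180359096 to 180359431) was called at 8.19 in edKO 1 and at 21.5 and 13.6 in WT 1 and WT 2. Only the outermost regions of the window were called in every heart. One lay in Rbbp8nl, 620 bp from an end of that gene (180275866 to 180276229), at 17.1 and 8.12 in edKO hearts and 11.2 and 16.2 in WT hearts. The other (180385106 to 180385826) overlapped Mir1a-1hg, the host transcript of a muscle microRNA, and was far stronger, at 72.3 and 53.5 in edKO hearts and 92.2 and 153.8 in WT hearts. It stood 49.6 kb from Gata5, just inside the window, while the next region outside, 51195 bp away on the other side, was also called in all 4 hearts.

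Gata6 lies on chromosome 18 (11052510 to 11085636) and encodes the second GATA factor of the myocardium. Calls numbered 3 and 4 in edKO 1 and edKO 2 and 5 and 7 in WT 1 and WT 2. Its lower end carried the widest region of the 5 windows (11051951 to 11053420, 1470 bp), which also covered the noncoding gene Gata6os. This region was open in all 4 hearts, with −log10 p of 50.0 and 42.2 in edKO 1 and edKO 2 and 64.8 and 61.5 in WT 1 and WT 2, and with fold enrichments between 6.88 and 7.57 in the 4 libraries. The only other region called in every heart lay 15.2 kb beyond the upper end (11100826 to 11101192), at 11.2 and 8.51 in edKO hearts and 13.9 and 19.9 in WT hearts. A WT-pair region lay inside the gene (11069494 to 11069843), at 12.7 in WT 1 and 7.52 in WT 2. A region called in edKO 2 alone, 1103 bp inside the upper end (11084099 to 11084533), had a −log10 p of 8.51, and a region 11.1 kb beyond that end (11096752 to 11097147) was called in every heart except edKO 2.

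Zfpm1 lies on chromosome 8 (122281856 to 122337862). Its promoter was the strongest member region, called in all 4 hearts (122281185 to 122282235, 1051 bp). This region also overlapped the noncoding gene Gm39269. The −log10 p was 170.0 and 102.3 in edKO 1 and edKO 2 and 170.4 and 156.7 in WT 1 and WT 2, from summit pileups of 229 and 172 in edKO hearts and 261 and 256 in WT hearts. The summits lay 170, 170, 166 and 170 bp upstream of the RefSeq start in edKO 1, edKO 2, WT 1 and WT 2, within the G and C rich stretch printed above. The region was above the 98th percentile in every list, with fold enrichments of 12.9 and 8.86 in edKO hearts and 10.5 and 9.50 in WT hearts.

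In the body of Zfpm1 none of the 8 inner regions was called in every heart. WT-pair regions lay 18018 bp inside the lower end (122299874 to 122300261), at 14.6 in WT 1 and 10.9 in WT 2, and 1.15 kb inside the upper end (122336414 to 122336717), at 7.84 and 8.64. The region at 122294225 to 122294639 was called at 11.1 and 8.39 in edKO 1 and edKO 2 and at 10.4 in WT 2, but not in WT 1. The 5 remaining inner regions were called in a single library each, 1 in edKO 1, 1 in edKO 2, 1 in WT 1 and 2 in WT 2, and 4 of them crowded between 122329951 and 122333413. Outside the gene the strongest shared region lay at the gene end of Zc3h18, a zinc finger gene (122376237 to 122377073), at 53.4 and 42.5 in edKO hearts and 87.3 and 84.2 in WT hearts. Another shared region lay in Zfp469 (122233900 to 122234515), at 29.4 and 26.1 in edKO hearts and 50.4 and 42.5 in WT hearts. Ranked among the regions called in all 4 hearts, the groups overlapped at both. The Zc3h18 region stood at the 82.9th and 86.6th percentiles in edKO hearts and at the 87.1st and 84.2nd in WT hearts. The Zfp469 region stood at 65.1 and 73.6 in edKO hearts and at 70.9 and 61.2 in WT hearts.

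Zfpm2 lies on chromosome 15 (40655042 to 41104592) and is the longest of the 5 genes at 450 kb, yet its window was sparse, with 1.27 regions per 100 kb. Both regions called in every heart sat at its lower end. The first (40654404 to 40655400) had −log10 p of 36.1 in edKO 1 and 9.79 in edKO 2, against 38.2 in WT 1 and 28.8 in WT 2. Within each library's own list it stood at the 82.9th percentile in edKO 1 and the 57.3rd in edKO 2. In WT 1 and WT 2 it stood at the 81.6th and 76.0th. By this rank edKO 1 lay above both WT hearts and edKO 2 below both. The pileup at its summit was 45 and 19 in edKO hearts and 55 and 44 in WT hearts. The second, 910 bp inside the gene (40655952 to 40656449), was at 11.5 and 9.93 in edKO hearts and 15.3 and 12.4 in WT hearts. Deep in the gene, regions 125 kb and 74.7 kb from the upper end (40979620 to 40980002 and 41029587 to 41029937) were called in the WT pair alone, at 7.17 and 8.09 and at 4.69 and 4.71. The second of these rested on a pileup of 9 in each WT library and was at the 2.65th percentile on average, among the weakest peaks of those lists. Another distal region, 134 kb from that end (40969861 to 40970172), was called at 5.36 in edKO 1 and at 5.48 and 11.9 in WT 1 and WT 2. No intron or exon could be assigned to these sites, because the gene table gives only start and end.

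Across the 5 genes, 9 of the 34 regions called in WT 1 and WT 2 had no call in either edKO heart, which is 26.5% (exact 95% interval 12.9 to 44.4, counting error only), against 19.4% of all regions of the genome. Another 9 were called in 1 edKO heart (6 in edKO 1 and 3 in edKO 2), and 16 (47.1%) in both, against 59.0% of all regions. The WT-pair share was 2 of 12 at Gata4, 2 of 5 at Gata5, 1 of 5 at Gata6, 2 of 7 at Zfpm1 and 2 of 5 at Zfpm2. None of these shares stood apart from the genome beyond its counting interval. Within 1 kb of a gene end 1 of 9 regions was WT-only (11.1%, against 5.92% of all such regions), and elsewhere 8 of 25 (32.0%, against 27.9%). The 9 regions were from 281 to 455 bp wide, with a median of 351 bp against 328 bp for all WT-only regions. Their median strength lay at the 30.4th percentile of the WT lists, with 31.9 for all WT-only regions. It was 80.0 for the 16 member regions shared by the 4 hearts and 76.8 for all shared regions. With lists of equal length, which cut the WT lists at a higher −log10 p than the edKO lists, 3 of the 9 remained WT-only. These were the site beyond Gata4 and both sites in Zfpm1. In that setting 3 of 26 regions (11.5%) stood against 10.6% of all. No member region was called in the edKO pair alone, 0 of 18, which allows a share of up to 16.7% by the limit of 3 counts and up to 18.5% by the exact 95% interval, where 236 of 17442 regions genome-wide (1.35%) were edKO-only.

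**Figure D3:**
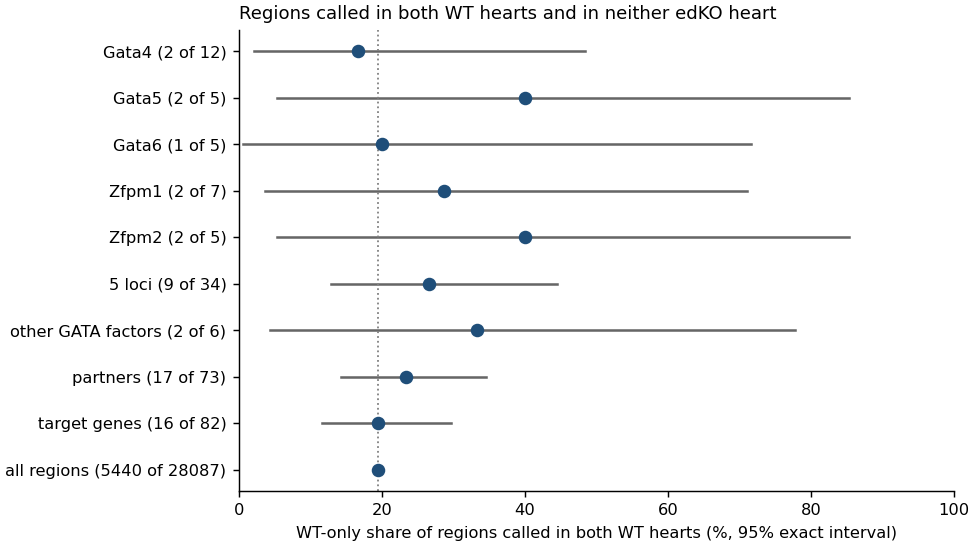
Share of the regions called in WT 1 and WT 2 that lacked a call in edKO 1 and edKO 2, in percent with exact 95% intervals for counting error, for each gene window, for the 5 windows together, for the windows of related genes and for all regions (dotted line). The 5 windows together stand at 26.5% and all regions at 19.4%, inside the interval of 12.9 to 44.4.

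To compare the strength of shared regions between libraries, the 16568 regions called in all 4 hearts were ranked by −log10 p in each library, so that lists of the same regions and length were set side by side. Of the 16 member regions among them, 6 ranked higher in both edKO hearts than in both WT hearts, 1 ranked lower and 9 overlapped, where 20.2% of all shared regions ranked higher and 19.9% lower. The regions that ranked higher included the gene ends of Gata4 and Gata6 and the inner of the 2 regions at the start of the Zfpm2 gene body. The Gata4 end stood at the 44.9th and 46th percentile in edKO 1 and edKO 2 and at the 41.7th and 26.2nd in WT 1 and WT 2. The Gata6 end stood at 81.3 and 86.4 in edKO hearts and at 79.1 and 74.7 in WT hearts, and the Zfpm2 region at 26.8 and 33.7 in edKO hearts and at 23.7 and 12.3 in WT hearts. The other 3 were the region inside Gata4 at 63245137, a site in Fdft1 (63164221 to 63165177) and the one in Rbbp8nl. The region that ranked lower was the strong site in Fdft1, at 91.2 and 94.3 in edKO hearts and 97.3 and 95.4 in WT hearts. Medians over the 16 were 63.3 and 63.3 in edKO 1 and edKO 2 and 55.9 and 53.3 in WT 1 and WT 2, where the median of all shared regions is 50.0 by construction. These are ranks within a library, and a region can rise in rank because others fell.

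**Figure D4:**
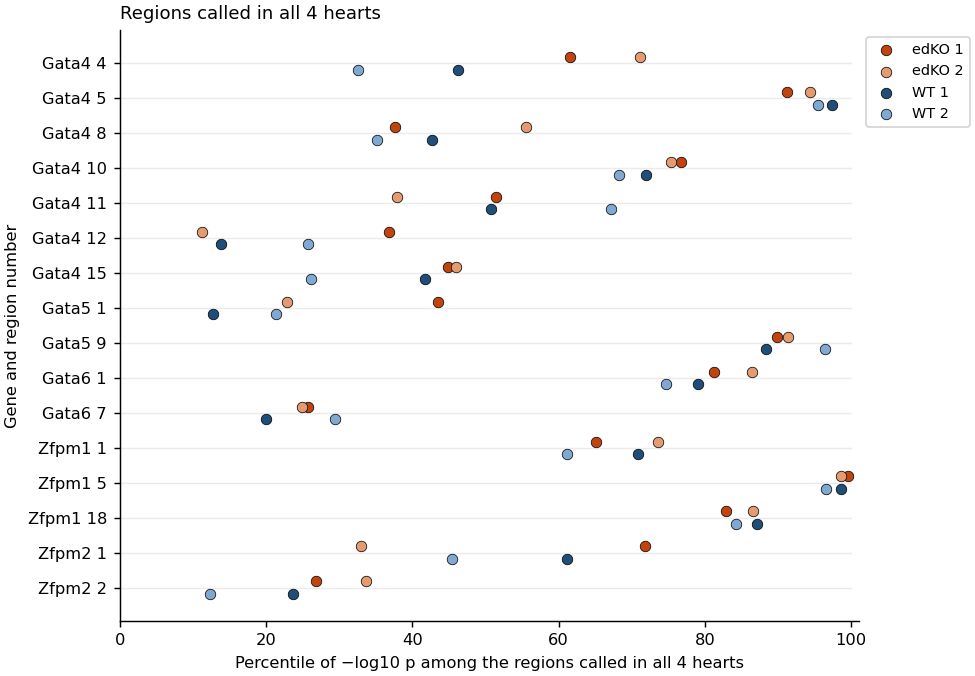
Percentile of −log10 p among the 16568 regions called in all 4 hearts, for the 16 member regions (gene and region number in order along the chromosome), with edKO hearts above and WT hearts below each line. Gata4 region 4, a site in Fdft1, shows the widest gap, at 61.6 and 71.1 in edKO hearts and 46.2 and 32.6 in WT hearts, and Zfpm1 region 5, its promoter, stands above 96 in every heart.

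Other genes of the GATA programme were read in the same windows. The blood and endothelial factors Gata1, Gata2 and Gata3 had few regions, 12 in all, called 5 and 8 times in edKO hearts and 8 and 9 times in WT hearts, and 2 of the 6 called in the WT pair were WT-only (33.3%, exact 95% interval 4.33 to 77.7, against 19.4% of all regions), both near Gata2. Transcription factors and cofactors that bind or work with GATA4 (14 genes) had 17 WT-only regions of 73, spread over 9 genes. This share of 23.3% (interval 14.2 to 34.6) was near the 19.4% of all regions. The strongest lay in the window of Nfatc4, a calcium-responsive factor, at 20.5 in WT 1 and 16.4 in WT 2, and of Tbx5, a T-box factor of the atria and left ventricle, at 10.7 and 21.4. Weaker ones stood near Smad4, which relays BMP and TGF-beta signals, Jarid2, Hand1, Nkx2-5, the homeobox partner of GATA4, and Hand2. Of 51 partner regions called in both edKO hearts, 3 were edKO-only (5.88%, interval 1.23 to 16.2, against 1.35% of all regions), 1 each in the windows of Tbx5, Nfatc4 and Ep300, a histone acetyltransferase.

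Heart muscle genes reported as targets of GATA4 or GATA6 (14 genes) had 16 WT-only regions of 82, or 19.5% (interval 11.6 to 29.7), beside 19.4% of all regions. They included a region at 11.8 in WT 1 and 15.9 in WT 2 within the overlapping windows of Nppa and Nppb, the natriuretic peptide genes, and others near Actc1 (cardiac actin), Tnni3 (cardiac troponin I), Corin (the protease that activates the natriuretic peptide), Tnnc1 (cardiac troponin C) and the neighbours Myh6 and Myh7 (myosin heavy chains). In the other direction 5 of 63 regions (7.94%) were edKO-only, against 1.35% of all regions. The exact 95% interval of this share was 2.63 to 17.6 for counting error only. Regions of the same hearts and of overlapping windows are not independent, so this interval cannot decide whether the share differs from 1.35. The share was not tested over hearts. Named after their values had been seen, 2 of them lay in the window of Chrm2, the cardiac muscarinic receptor, and 1 each in those of Ccnd2, a cyclin, of Nppa and Nppb, and of Myh6 and Myh7. The strongest of those at Chrm2 was weak, at 5.05 in edKO 1 and 7.74 in edKO 2.

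The gene windows whose pattern of calls over the 4 libraries was nearest to that of a member, by Euclidean distance between the shares of regions called, were those of Top2a, Gpsm1 and Grn for Gata4 (distance 0.0373 to 0.0559) and of Laptm4a, A630001G21Rik and Crygn for Gata5 (0.0562 to 0.0745). They were Gpr142 and Acd for Gata6, Gramd1a, Crispld2 and Ppp1cc for Zfpm1, and Smim43, Acadl and Insl6 for Zfpm2. Gpr142 and Smim43 matched Gata6 and Zfpm2 exactly, with 3, 4, 5 and 7 calls and 4, 2, 7 and 5 calls in edKO 1, edKO 2, WT 1 and WT 2. Between 1124 and 6316 windows of similar region number were compared with each member.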

How the data were processed

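Per the submitters' processing notes the reads were handled with CASAVA, bcl2fastq, cutadapt, Bowtie2, SAMtools and MACS2 on mm10 or GRCm38. Versions, the Tn5 shift and the treatment of duplicates were not given in the sources used here. Peak calling was per library, with 1 list for each deposited by the authors, and no replicates were pooled. Each deposited list gives, per peak, a fold enrichment (a ratio of pileup to local background), the −log10 p and −log10 q, the summit position and a score, which was not used. These values belong to their own library and served to describe or rank peaks within it. No read counts were used, and pileup and background at a summit were solved from the deposited fold and −log10 p under a Poisson tail with a pseudocount of 1, which is assumed (within 0.001, for at least 99.99% of peaks).

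Peaks overlapping by at least 1 bp were merged with Python 3.11.15, pandas 2.3.3 and numpy 2.4.6, and a library was called in a region that any of its peaks touched. WT-only regions had a call in both WT libraries and none in edKO, edKO-only regions the reverse. Numbers of regions per heart were compared by exact permutation tests (two-sided, scipy 1.17.1), and the steps were tested on simulated data. Gene positions and promoter sequences came from RefSeq tables of GRCm38.p6; the promoter table held Gata5 and Zfpm1 of the 5 genes, and no protein sequences or genome were used. A gene end is either limit of the gene. Regions named are, per gene, those at its ends, WT-only or edKO-only, and the strongest 2 called in all 4 hearts; on the related lists, up to 8 genes with the strongest WT-only or edKO-only region are named. Other regions were named after their values had been seen. The members and lists were chosen with earlier results of these data known. Intervals and limits cover counting error only. One marker list and 1 of the windows nearest to Gata6 are not reported here.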

Additional observations from a re-analysis of the deposited data

How the results depend on the processing

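The lower number of regions in edKO hearts over the 5 windows kept its direction in all 16 alternatives. The exact permutation p for this sum was 0.333 wherever such a test could be made, and with the replicate block (WT 1 with edKO 1, WT 2 with edKO 2), where nothing says that the numbers pair hearts, the difference was −18.0 with an exact sign-flip p of 0.5, the smallest that 2 pairs allow. Leaving out 1 heart gave differences of −22.0 to −14.5, as values with no test. Per 10000 peaks of a library the means were 9.70 in edKO hearts and 12 in WT hearts. The separation of the groups at single genes depended on the settings. With lists of equal length the difference (edKO minus WT) was 0.0 at Zfpm2, −0.5 at Gata6 (exact permutation p = 1.0 for both) and −1.5 at Gata5 (p = 0.667). With windows of 0 kb it was −0.5 at Gata4 (exact permutation p = 1.0) and −1.5 at Gata6 (p = 0.667), and with 20 kb −1.0 at Gata4 (p = 1.0). The exact permutation p was also 0.667 at Gata5 and Zfpm2 with 100 kb, at Zfpm1 with only regions nearest to the member gene, at Zfpm2 where peaks under a −log10 p of 5 were dropped, and at Gata6 and Zfpm2 where those under 10 were dropped. With lists of equal length the WT-only share over the 5 windows was 11.5% (10.6% of all regions). It was 35.3% with windows of 0 kb, 31.8% with 20 kb and 20.4% with 100 kb. With only regions nearest to the member gene it was 32.0%. The share of all regions was 19.4% in each of these window settings. Among regions at a −log10 p of 10 or more in both WT hearts that share was 8.33% (5.17% of all regions). Without 1 heart the WT-only share was 44.1% without edKO 1 (35.9% of all regions) and 35.3% without edKO 2 (24.6%). It was 42.9% without WT 1 (34.2%) and 36.6% without WT 2 (30.4%). EdKO-only regions numbered 1 of 18 with lists of equal length (3.85% of all regions) and 1 of 20 with summits within 150 bp (2.72%). Without 1 heart they numbered 0 to 5: 5 of 26 without edKO 1 (24.2% of all regions), 2 of 27 without edKO 2 (10.1%), 0 of 18 without WT 1 (2.81%) and 2 of 18 without WT 2 (3.61%). Shared regions that ranked lower in both edKO hearts numbered 0 with windows of 0 kb (of 9), 20 kb (of 10) or only regions nearest to the member gene (of 11). They numbered 3 of 29 with 100 kb. In each of these settings 19.9% of all shared regions ranked lower. Where peaks under a −log10 p of 10 were dropped they numbered 2 of 11, against 20.2% of all. Without 1 heart they numbered 5 of 19 without edKO 1, 5 of 22 without edKO 2, 4 of 18 without WT 1 and 2 of 16 without WT 2, where 33.2% to 37.2% of all such regions ranked lower. Those that ranked higher numbered 4 of 9 with windows of 0 kb, 4 of 10 with 20 kb and 7 of 29 with 100 kb. With only regions nearest to the member gene they numbered 4 of 11. In each of these settings 20.2% of all shared regions ranked higher. Where peaks under a −log10 p of 10 were dropped, 3 of 11 member regions ranked higher (20.6% of all). Without 1 heart they numbered 8 of 19, 10 of 22, 10 of 18 and 8 of 16 in the same order, where 33.5% to 38.5% of all such regions ranked higher. The cause of these changes was not tested, except that leaving out a heart asks for agreement of fewer libraries.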
